A study of Mus musculus with 4 samples.

Results

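Oncostatin M, interleukin 6 (IL-6) and leukemia inhibitory factor (LIF) signaling was followed through 10 genes, picked by symbol from the 31253 genes of the count tables. Osm, Il6, Lif and Il11 encode ligands, and Osmr, Il6ra, Lifr and Il6st encode receptor chains. Stat3 encodes the transcription factor that the receptors activate, and Socs3 encodes the feedback inhibitor that this factor induces. The question asked of them was which cells of the injured hemisphere carried ligand transcripts, which carried receptor transcripts, and whether either differed between the genotypes.

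The 4 single-cell RNA libraries, made on the BD Rhapsody platform, came from the injured side of the brain of adult mice, male and/or female, 3 days after transient occlusion of the middle cerebral artery. Controls, labelled Flox, were Htr2b flox/flox littermates (2 libraries). The other 2 libraries, labelled Ms4a3 cKO, came from mice given as Htr2b ERCre with Ms4a3-Cre, and the mice received tamoxifen that ended 3 days ahead of surgery. Htr2b encodes a serotonin receptor, and Ms4a3 is a gene of granulocyte and monocyte progenitors whose Cre marks their progeny. Both an inducible Cre and Ms4a3-Cre are named, so the effects of tamoxifen, of each Cre and of Htr2b loss cannot be told apart here. Separate animals are not stated for the libraries, and p-values therefore cover only how much these samples vary, possibly for technical reasons.

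After filtering, 59685 cells remained, 13215 and 16267 in the Flox libraries and 14904 and 15299 in the cKO libraries, with medians of 6599, 5523, 3764 and 4004 unique molecular identifiers (UMIs, counted molecules) per cell. Only 13 barcode sequences occurred in more than 1 library. Cells were grouped into 32 clusters, of which 29 received names from marker genes, giving 16 classes; a class name stands for cells like that type, and these rebuilt classes are not the authors' own. Each level is given as CPM, a gene's UMIs over all UMIs of a class in a library, scaled to a total of 1e6, so that it does not depend on how many cells of the class were caught. In the monocyte-macrophage class Htr2b was at a level of 81.7 and 130 CPM in Flox and at 10.8 and 26.1 in cKO, and in microglia at 48.7 and 109 against 99.8 and 86.6. The deleted stretch of Htr2b is not given, so these levels check the labels only where the counted 3′ ends fall in or depend on it. The libraries stood apart from each other in makeup. Flox 1 held its microglia mostly in clusters 7 and 9 (40.6% and 39.7% of the class), whereas cluster 0 held 37.6%, 52.9% and 42.9% of them in the other libraries. Its monocyte-macrophages lay in cluster 4 (75.7%), those of Flox 2 in cluster 2 (76.8%), and those of the cKO libraries in cluster 5 (57.9% and 58.3%).

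Oncostatin M, IL-6, LIF and IL-11, of the IL-6 family, signal through the shared chain gp130, the product of Il6st. A partner or alpha chain decides which ligand is bound. Oncostatin M uses the partner encoded by Osmr, and LIF the one encoded by Lifr, while IL-6 and IL-11 first bind their own alpha chains, for IL-6 the product of Il6ra. Receptor engagement activates Janus kinases and STAT3, and SOCS3 then binds gp130 and the kinases and damps the signal. After brain ischemia the family is known for driving astrocyte reactivity and the acute-phase response of blood vessels.

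The promoter windows of the members are shown first because 2 families of regulatory factors bear on the results: STAT factors, which act downstream of gp130, and AP-1 factors, which respond to inflammatory and stress signals. Windows ran from 250 bases before to 50 bases after an annotated transcript start (RefSeq, GRCm38.p6), and 9 of the 10 members matched one, with 11 windows in all; Osm had none. For the Socs3 window and the Il11 window shown, the start used lies inside the gene interval given below, not at its outer end. Each motif was searched on both strands and is in capitals. The STAT motif TTCNNNGAA stood in the window of Socs3 alone among the members, on the minus strand at chr11:117969503-117969529, with its first base 154 bases before the start used for the window.
Socs3: aaaccagccTTCTTAGAAgggaggggg
The AP-1 motif TGANTCA stood in the windows of Osmr and of 3 of the 4 ligands. These ligand sites lay 249 bases before the start used for Il6 (plus strand, chr5:30012864-30012880), 98 before that used for Il11 (minus strand, chr7:4778224-4778248) and 228 before that used for Lif (plus strand, chr11:4257331-4257355).
Il6: cTGAGTCActtttaaag
Il11: gagggagggTGAGTCAggatgtgtc
Lif: agtcagctgTGACTCAggccatagt
Among all 32851 windows of this length, 8.30% held TTCNNNGAA and 7.81% held TGANTCA. The stricter TTCCNGGAA, present in 1.15% of all windows, was in no member window. These matches describe letters in a window and do not show that a factor binds there.

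In the RefSeq annotation Osm (chr11:4236785-4241026) and Lif (chr11:4257568-4272514) are neighbours on chromosome 11, and Osmr (chr15:6813568-6874968) and Lifr (chr15:7090610-7197489) are near each other on chromosome 15. Il6 (chr5:30013114-30019975) overlaps A230098N10Rik, Il11 (chr7:4772373-4782907) overlaps Tmem190, Il6ra (chr3:89869324-89913196) overlaps Gm46811 and Stat3 (chr11:100886806-100939594) overlaps Gm46295. Whether the counting used strand is not stated, so reads from these overlaps cannot be assigned with certainty. Il6st lies at chr13:112464070-112506860 and Socs3 at chr11:117966079-117970336.

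**Figure D1:**
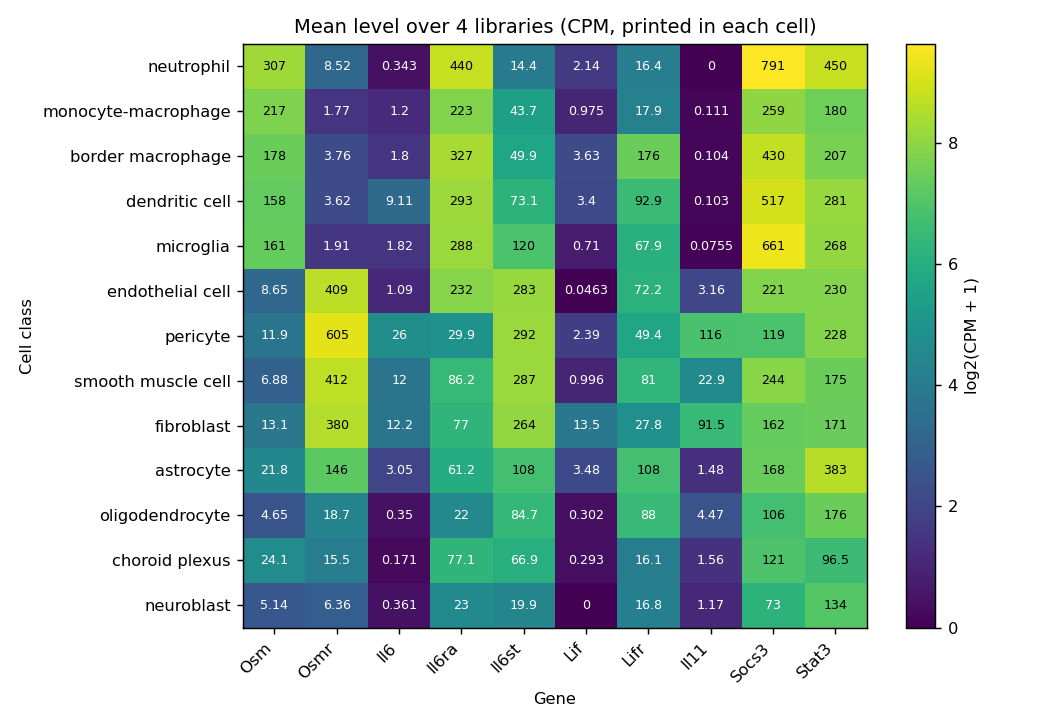
Mean level of each member (columns) in 13 cell classes (rows), as CPM averaged over the 4 libraries and printed in each cell, with color showing log2(CPM + 1). Osm is highest in the 5 myeloid classes at the top, from 158 CPM in dendritic cells to 307 in neutrophils, and Osmr in endothelial cells, pericytes, smooth muscle cells and fibroblasts, from 380 to 605 CPM; pericytes and smooth muscle cells had 16 and 20 cells in Flox 1.

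Osm was a transcript of myeloid cells. The 5 myeloid classes (microglia, monocyte-macrophages, border macrophages, dendritic cells and neutrophils) held 93.3%, 94.5%, 96.1% and 95.3% of all Osm UMIs in Flox 1, Flox 2, cKO 1 and cKO 2, the order used for every list of 4 values below. Microglia alone held 39.9%, 37.7%, 44.5% and 60.4%, and monocyte-macrophages 43.5%, 46.0%, 41.2% and 30.7%. Microglia and monocyte-macrophages, the most numerous myeloid classes, thus carried most of the Osm UMIs in every library.

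By level, neutrophils had the highest mean Osm level, 306.9 ± 255.7 CPM (SD, n = 4 libraries), with 614, 75.2, 420 and 119 CPM. That spread ran across genotypes, with Flox 1 and cKO 1 high and Flox 2 and cKO 2 low. Monocyte-macrophages had 115, 128, 330 and 295 CPM, border macrophages 113, 127, 244 and 229, microglia 126, 112, 238 and 169, and dendritic cells 153, 151, 188 and 138. These 5 classes overlapped with their neighbours in the order of means. Among the 11 tested classes the next, choroid plexus, reached at most 47.2 CPM and stayed below every dendritic cell value. Of the classes too small for a test, T or NK cells had 22.3, 41.4, 49.5 and 21.6 CPM (43, 12, 6 and 4 UMIs), and ependymal cells had 0 UMIs in 3 libraries and 81.1 CPM from 7 UMIs in cKO 2. In endothelial cells Osm stood at 4.33% to 7.31% of its microglial level, where the myeloid gene Tyrobp, which endothelial cells should lack, stood at 2.68% to 8.88%; the low endothelial Osm is read as background.

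The neutrophil class was a mixture of 2 clusters whose shares differed between libraries. Cluster 17 held 79.2%, 97.4%, 34.1% and 73.5% of it, and cluster 19 the rest. Neutrophil marker genes summed to 80635, 15100, 64311 and 55298 CPM in this class, lowest in Flox 2, the library with the lowest neutrophil Osm. Within cluster 17 Osm was at 650, 74.9, 191 and 118 CPM, and within cluster 19 at 538, 81.6, 490 and 120 CPM (55, 3, 1092 and 29 UMIs). Flox 1 had the highest value in each of the clusters, and the 3 UMIs of Flox 2 in cluster 19 are too few to place it below cKO 2 there.

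Il6 and Lif, the other ligands with a role in acute brain injury, were rare. All cells together gave 696 Il6 UMIs (171, 158, 177 and 190) and 361 Lif UMIs (28, 120, 126 and 87). Microglia held 56.1%, 29.1%, 28.2% and 32.1% of the Il6 UMIs. Fibroblasts held 43.0% of them in Flox 2 and 2.92% to 6.32% in the other libraries, and dendritic cells 23.98% in Flox 1 and 1.90% to 3.68% elsewhere.

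By level, Il6 in fibroblasts was at 2.27, 11.2, 15.96 and 19.3 CPM and in microglia at 2.70, 1.43, 1.68 and 1.45 CPM. Pericytes, the contractile cells around capillaries, were too few for a test (16 cells in Flox 1), and had 0, 14.8, 36.4 and 52.7 CPM from 0, 7, 23 and 33 UMIs. For 0 UMIs in Flox 1 a level of up to 84.9 CPM (3 counts) is allowed, above all 3 other libraries. Several of the highest Il6 values rested on 1 cell, which gave 10 of the 12 UMIs in cKO 2 fibroblasts, 16 of the 41 UMIs in Flox 1 dendritic cells and 17 of the 33 UMIs in cKO 2 pericytes. Lif reached its highest mean in fibroblasts, at 0.454, 6.77, 19.5 and 27.4 CPM, where Flox 1 held 1 UMI.

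Il11 gave 26, 227, 286 and 441 UMIs in all. Vascular and fibroblast classes held 26.9%, 79.3%, 73.4% and 93.4% of them, and cells of the oligodendrocyte lineage 61.5%, 13.7%, 21.7% and 4.08%. By level, oligodendrocytes had 3.62, 3.31, 8.76 and 2.18 CPM (15, 31, 62 and 18 UMIs). Fibroblasts had 3.18, 27.3, 126 and 209 CPM and pericytes 0, 8.45, 136 and 318 CPM (0, 4, 86 and 199 UMIs). Smooth muscle cells had 0, 8.78, 35.9 and 46.7 CPM, whereas neutrophils had 0 UMIs in all 4 libraries and microglia at most 0.168 CPM. Fibroblasts were thus above oligodendrocytes in 3 libraries, while in Flox 1 their level, from 7 UMIs, was below that of oligodendrocytes. Pericytes were above fibroblasts in both cKO libraries. The cKO libraries were above the Flox libraries in fibroblasts, pericytes and smooth muscle cells, with the reservation that Flox 1 held 16 pericytes and 20 smooth muscle cells and that its 0 pericyte UMIs allow up to 84.9 CPM. In cKO 2, 1 cell gave 64 of the 130 fibroblast UMIs and another 63 of the 199 pericyte UMIs; with those cells left out the levels were 106 and 217 CPM.

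Receptor transcripts for oncostatin M lay in other classes than its ligand. Osmr was at 245, 294, 696 and 401 CPM in endothelial cells, 364, 332, 374 and 448 in fibroblasts, and 566, 507, 724 and 623 in pericytes. Smooth muscle cells had 203, 425, 620 and 401 CPM. Endothelial cells, pericytes, smooth muscle cells and fibroblasts together held 93.8%, 83.7%, 82.9% and 81.4% of Osmr UMIs. The fibroblast part was 76.9% and 50.2% in Flox and 3.58% and 6.92% in cKO, where 264, 861, 129 and 167 fibroblasts were recovered. The endothelial part was 12.96% and 21.5% against 63.7% and 53.6%, from 145, 816, 1732 and 1799 endothelial cells.

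Astrocytes were next, with 45.1, 126, 256 and 157 CPM, below every fibroblast value. Their cluster 16, which is led by the reactive-astrocyte gene Gfap, had 72.0, 148, 318 and 230 CPM, and cluster 24 had 14.6, 27.2, 121 and 53.2. Cluster 16 was the higher of the clusters in each library. The 5 myeloid classes that carried Osm had at most 12.4 CPM of Osmr.

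**Figure D2:**
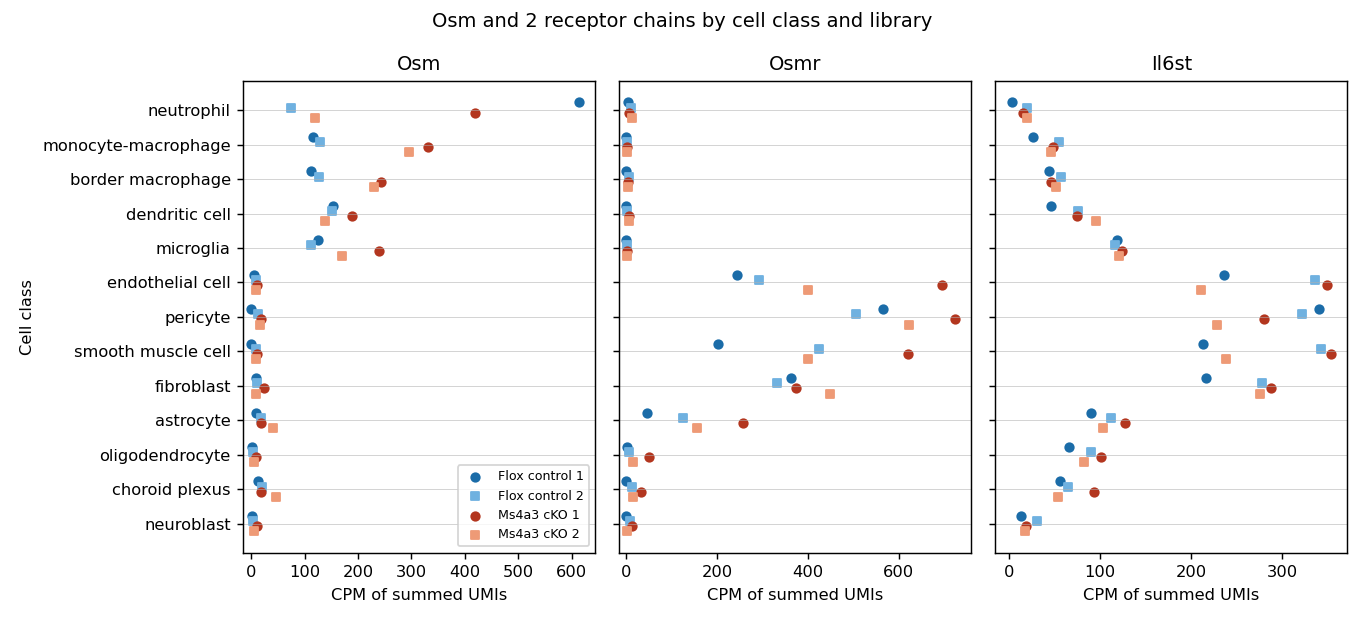
Osm, Osmr and Il6st by cell class, with CPM of summed UMIs on a linear horizontal axis for each gene and 1 point per library (blue for Flox, red for cKO). Microglia and monocyte-macrophages have Osm of 112 to 330 CPM and Osmr of at most 3.03 CPM, and endothelial cells, pericytes, smooth muscle cells and fibroblasts show the opposite.

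Il6st, the shared chain, was widespread but graded. Endothelial cells had 236, 336, 349 and 210 CPM and fibroblasts 216, 278, 287 and 276, and the fibroblast values all lay above those of microglia (119, 116, 125 and 120). Neutrophils were lowest, at 3.15 to 19.5 CPM. Microglial Il6st was the steadiest of these levels, 119.9 ± 3.52 CPM (SD, n = 4 libraries).

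Osmr and Il6st were seen in the same cell, as a working oncostatin M receptor needs, in 27.6%, 30.0%, 36.5% and 22.01% of endothelial cells and in 54.9%, 40.1%, 27.1% and 29.3% of fibroblasts. In microglia, a class whose Osmr was at most 3.03 CPM, this share was 0.103% to 0.977% although their cells were deeper, with median UMIs of 6528, 6367, 5010 and 5877 against 3218, 2662.5, 2233.5 and 2171 in endothelial cells. After each cell was thinned to 1000 UMIs, which left out 8, 105, 224 and 217 endothelial cells and 37, 31, 16 and 19 microglia, the shares were 3.99%, 6.06%, 11.97% and 5.08% in endothelial cells and at most 0.0683% in microglia. In fibroblasts, whose median depths were 9482, 1678, 1767 and 1937 UMIs, they were 5.29%, 6.99%, 8.28% and 7.08% with 46, 314, 30 and 40 cells left out, so the higher unthinned shares of the Flox libraries were not seen at equal depth. Such shares count cells with a UMI of both genes and miss cells in which either went uncounted.

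Il6ra, the alpha chain for IL-6, followed another layout. Its highest levels were in neutrophils (299, 438, 623 and 400 CPM), border macrophages (290, 305, 316 and 398) and dendritic cells (213, 267, 349 and 344), followed by microglia (220, 267, 327 and 337). Endothelial cells had 152, 154, 372 and 249 CPM, or 57.5% to 114% of the microglial level in the same library. Tyrobp, a myeloid gene that endothelial cells should lack, was at 2.68% to 8.88% of its microglial level there. The first 6 classes in the order of means, ending with monocyte-macrophages (126, 203, 291 and 271 CPM), overlapped with their neighbours, and choroid plexus, at 49.0 to 109 CPM, lay below them.

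Lifr was highest in border macrophages, the macrophages of meninges and perivascular spaces, at 127, 123, 203 and 250 CPM. Astrocytes had 88.9, 50.7, 147 and 145 CPM, and within cluster 24 the level was 126, 122, 306 and 265 against 56.6, 34.5, 73.7 and 61.3 in cluster 16, the reverse of the order seen for Osmr. Oligodendrocytes had 77.4, 63.0, 99.3 and 112 CPM. Microglia had 18.1, 29.9, 121 and 103 CPM and monocyte-macrophages 3.17, 8.51, 32.8 and 26.96. In microglia, monocyte-macrophages, border macrophages, astrocytes and oligodendrocytes the cKO libraries all lay above the Flox libraries.

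Stat3 was present in every class, with the highest mean in neutrophils, at 334, 379, 625 and 462 CPM. Microglia had 126, 223, 405 and 318 CPM, endothelial cells 134, 192, 348 and 247, and border macrophages 108, 202, 254 and 265. In astrocytes Stat3 was at 116, 180, 999 and 237 CPM, and 1 cell gave 1106 of the 1464 UMIs in cKO 1, without which that library stood at 244 CPM.

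Socs3 was highest in myeloid cells. Neutrophils had 857, 1064, 692 and 553 CPM, microglia 409, 560, 948 and 726, dendritic cells 253, 417, 630 and 767, and border macrophages 197, 321, 603 and 599. Monocyte-macrophages had 51.2, 197, 448 and 338 CPM, and endothelial cells, which carried Osmr and Il6st together, had 70.7, 167, 411 and 235 CPM. Neighbouring classes in the order of Socs3 means overlapped throughout.

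The genes whose levels were most like a member's over the 11 classes were named by Pearson's r between log2(CPM + 1) class means, as a description over classes that share libraries. Osm was most like Spi1 (r = 0.99), the myeloid transcription factor PU.1, then Lilr4b and Rab32. Osmr was most like Tcf7l1 (0.99), Pcdh19 and Ccn2, a matrix protein gene of vessels and fibroblasts. Il11 was most like Kcne4 (0.97), Col13a1 and Ccn4. Socs3 was most like Junb (0.97), which encodes an AP-1 subunit, then Zfp36, an RNA-decay factor, and Relb. Il6ra was most like Sipa1 (0.99), Parp14 and Trim30a, and Il6st most like Creb3l2 (0.95), Krtcap2 and Bag3. Stat3 (Stk40, 0.94) and Lifr (Hspa1a, 0.84) had looser counterparts.

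Between genotypes, the members were compared per class on summed counts with edgeR's quasi-likelihood test, with p-values adjusted over all genes of a class by the Benjamini-Hochberg method and called at an adjusted p under 0.05. Of 81 tests of a member in a class, edgeR called 0, against 0.0246% of all tests over all genes, while 33 had an unadjusted p under 0.05 and the smallest adjusted p was 0.0895. Over all genes of a class, an unadjusted edgeR p under 0.05 came in from 401 of 8352 tests in the choroid plexus to 2073 of 11479 in astrocytes. DESeq2, the alternative tool, called 13 of the 75 to which it gave an adjusted p, against 1.91% of all genes' tests. In 54 of the 81 tests both cKO libraries were above both Flox libraries, in 1 they were below, and in 26 the groups overlapped. Over all genes of the same classes, 25.4% of tests had both cKO libraries higher. The members were chosen with earlier results of these data known, so their shares beside those of all genes are a description only. The 54 include levels near the floor, such as Osmr in monocyte-macrophages, and endothelial Osm, read above as background. With 2 libraries in each group, the power was limited: in simulated counts the edgeR test recovered 69.5% of 4-fold and 12.6% of 2-fold changes in microglia and 67.4% and 3.09% in endothelial cells. Of the genes it called there, 15.2% and 8.22% had not been changed.

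**Figure D3:**
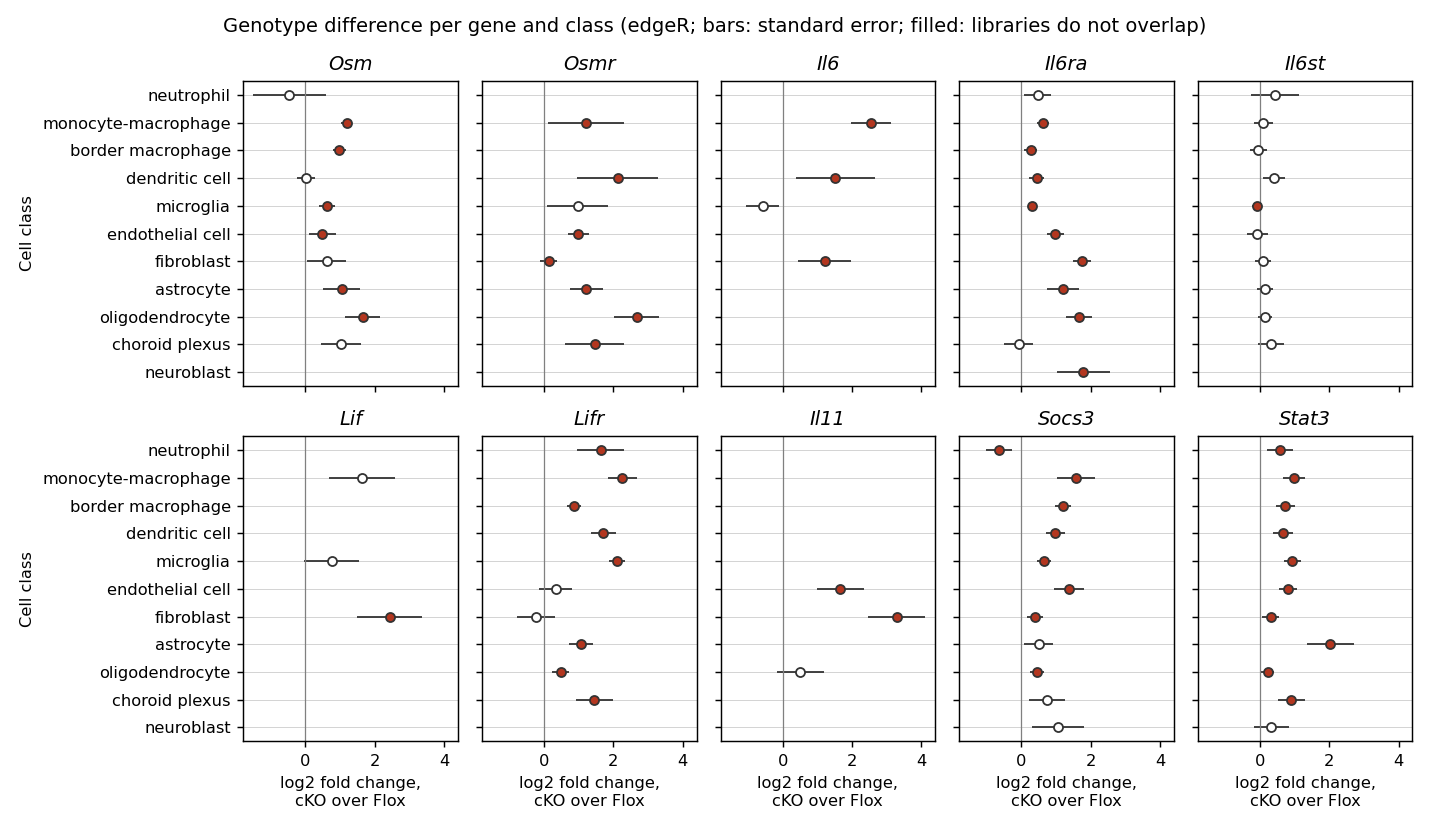
Log2 fold change, cKO over Flox, of each member in each class in which it passed the filter on low counts, from edgeR, with bars of 1 standard error and a vertical line at 0. Points are filled where both libraries of a genotype lie on the same side of both others by CPM; most lie to the right of 0, and the neutrophil points of Osm and Socs3 lie to the left.

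Flox 1 was the lowest of the 4 libraries in 64 of the 81 member tests, and cKO 1 the highest in 49. How often each library was lowest or highest over all genes was not counted, so these counts cannot be read as particular to the members. Stat3 was lowest in Flox 1 in all 11 classes and Socs3 in 10 of 11, neutrophils being the exception. With Flox 1 left out, edgeR called 13 of 85 member tests (1.65% of all genes' tests), and with Flox 2 left out 26 of 82 (12.3% of all genes' tests). Leaving out cKO 1 gave 1 of 84 (0.0523% of all genes' tests), and leaving out cKO 2 gave 2 of 83 (0.147%). The number of calls thus rose with either Flox library left out, which leaves 1 control library and no spread between controls. A fit without a cKO library likewise leaves 1 cKO library, and this limit holds for all fits below with a library left out. The libraries also differed in makeup, Flox 1 among them, and the part of this in the differences was not tested.

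In monocyte-macrophages, 7 of 9 members tested had both cKO libraries higher, against 30.3% of all genes tested in this class. The 7 include Osmr and Il6, which were near the floor, at 0.118, 2.02, 2.92 and 2.04 CPM for Osmr and 0.308, 0.322, 2.77 and 1.38 CPM for Il6. Osm, at 115 and 128 CPM in Flox and 330 and 295 in cKO, had a log2 fold change of 1.19 ± 0.16 (SE), with an adjusted p of 0.346 in edgeR and of 1.56e-05 in DESeq2. The groups did not overlap. Without Flox 1 the edgeR adjusted p for Osm was 0.0106 and without Flox 2 it was 0.00772. Without cKO 1 it was 0.9997 and without cKO 2 it was 0.320. Of the 5 clusters of the class, Osm was higher in both cKO libraries within clusters 2 (139, 121, 219 and 219 CPM), 4 and 25. In cluster 5, which held most cKO cells of the class, it was at 512 (from 50 UMIs), 184, 340 and 339 CPM, and in cluster 15 at 369, 188, 356 and 295 CPM, so that within these clusters the groups overlapped.

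Lifr in monocyte-macrophages had a log2 fold change of 2.26 ± 0.41 (adjusted p of 0.346 in edgeR and 3.76e-05 in DESeq2), with Flox at 3.17 and 8.51 CPM and cKO at 32.8 and 26.96. Within cluster 5 its levels were 20.5 (from 2 UMIs), 31.5, 30.6 and 29.9 CPM and the groups overlapped. It was higher in both cKO libraries in clusters 2 (4.76, 5.46, 12.02 and 14.1 CPM), 15 (25.9, 45.6, 50.6 and 85.5) and 25 (0.561, 11.2, 24.5 and 30.2), and lower in cluster 4 (3.45, 1.17, 0 and 0, from 108, 2, 0 and 0 UMIs), which held 11 and 24 cKO cells. Socs3, at 51.2, 197, 448 and 338 CPM, had a log2 fold change of 1.59 ± 0.54 (adjusted p of 0.406 in edgeR and 0.0381 in DESeq2), and within cluster 5 the levels were 235 (from 23 UMIs), 381, 441 and 365 CPM, so the groups overlapped. In the other 4 clusters Socs3 was higher in both cKO libraries, with 69.3, 176, 366 and 261 CPM in cluster 2, 53.1, 163, 459 and 222 in cluster 4 (the cKO values from 8 and 12 UMIs), 205, 300, 514 and 572 in cluster 15 and 31.6, 273, 441 and 333 in cluster 25. Microglial marker genes summed to 8789, 4598, 2832 and 3698 CPM in this class, and its own markers to 3192, 6718, 19851 and 13311 CPM. The part of this shift in the class's differences was not tested. Leaving out Flox 2, edgeR called 8 of the 9 members in monocyte-macrophages, but it then also called 31.4% of all genes there.

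Microglial Lifr showed the smallest unadjusted p of the microglial members. Flox libraries were at 18.1 and 29.9 CPM and cKO libraries at 121 and 103, a log2 fold change of 2.10 ± 0.22 (adjusted p of 0.188 in edgeR and 1.29e-12 in DESeq2). Leaving out any of the 4 libraries gave log2 fold changes from 1.87 to 2.37, in fits that leave 1 library in a group. Cells with a Lifr UMI made up 10.6%, 16.9%, 46.6% and 43.9% of microglia, and 2.26%, 4.02%, 15.3% and 12.9% after thinning to 1000 UMIs. In neutrophils, a class with little Lifr, the share was 1.26%, 0.787%, 3.54% and 4.81%, at median depths of 1682, 1289.5, 1974 and 1524 UMIs.

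The difference in microglial Lifr held inside each of the 5 microglial clusters. Cluster 0 had 51.7, 66.3, 251 and 215 CPM, cluster 3 had 17.5, 26.2, 75.4 and 74.0, and cluster 9 had 34.8, 50.3, 233 and 189. Clusters 6 (5.33, 13.7, 34.4 and 37.6 CPM) and 7 (10.9, 9.41, 18.7 and 51.5) were lower in level, with the cKO libraries again above both Flox libraries. The groups were thus separate within clusters as well as in the whole class.

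**Figure D4:**
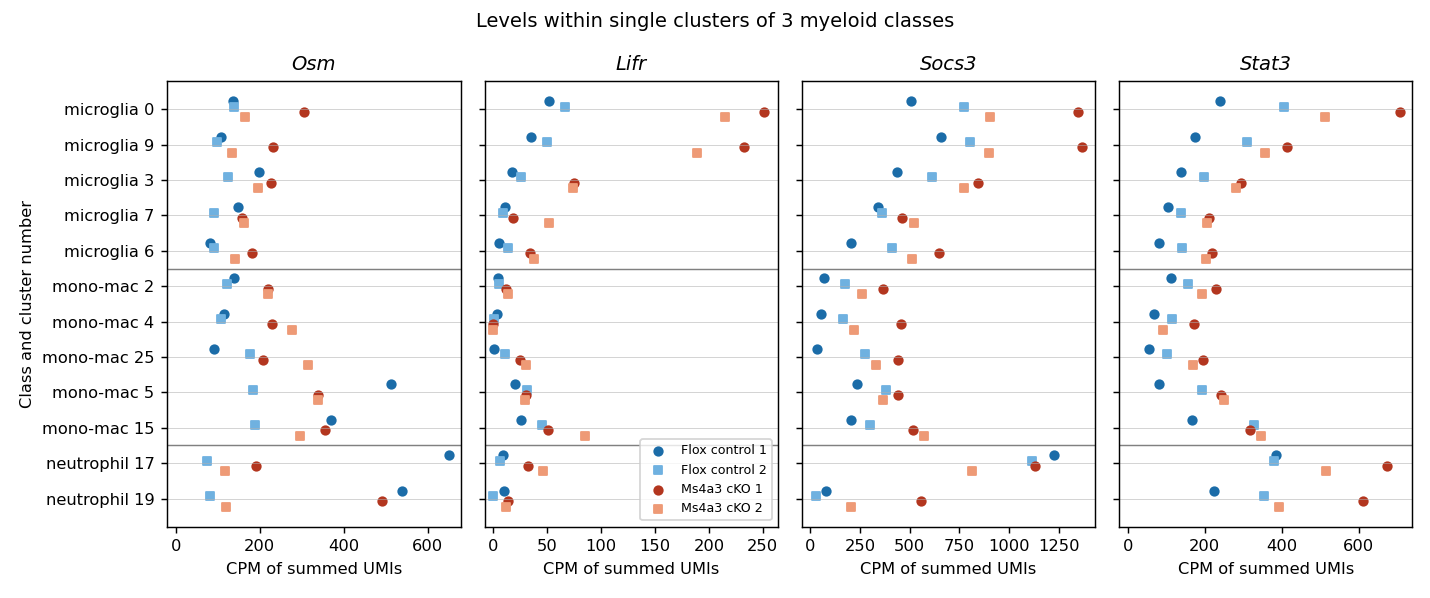
Levels of Osm, Lifr, Socs3 and Stat3 inside single clusters of microglia, monocyte-macrophages (mono-mac) and neutrophils, as CPM of summed UMIs on a linear axis with 1 point per library. For Lifr the cKO points lie above the Flox points in all 5 microglial clusters, and in monocyte-macrophage cluster 5 they overlap.

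In microglia 6 of 9 members tested had both cKO libraries higher, against 34.1% of all genes tested. Stat3, at 126, 223, 405 and 318 CPM, had a log2 fold change of 0.94 ± 0.26 (adjusted p of 0.447 in edgeR and 0.0469 in DESeq2). Socs3, at 409, 560, 948 and 726 CPM, had 0.66 ± 0.19 and Osm 0.63 ± 0.23 (edgeR adjusted p of 0.452 and 0.458). Flox 1 and Flox 2 were below both cKO libraries for each. Inside the clusters, Socs3 was above both Flox libraries in both cKO libraries in all 5, with 506, 773, 1347 and 902 CPM in cluster 0, and Osm in 4, the exception being cluster 3 (199, 124, 228 and 195 CPM). Il6st had a log2 fold change of -0.08 ± 0.14 (edgeR adjusted p of 0.816), although its CPM was slightly higher in both cKO libraries; the fitted value uses library scaling that CPM does not, and its sign turned to 0.041 without Flox 1.

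Border macrophages had 5 of 6 members higher in both cKO libraries, against 21.2% of all genes tested. Osm, at 113, 127, 244 and 229 CPM, had a log2 fold change of 0.98 ± 0.18, with an adjusted p of 0.0895 in edgeR and 0.0493 in DESeq2, the smallest edgeR value of any member. Socs3, at 197, 321, 603 and 599 CPM, had 1.22 ± 0.23 (adjusted p of 0.101 in edgeR and 0.00241 in DESeq2), and Lifr, at 127, 123, 203 and 250 CPM, had 0.87 ± 0.20 (edgeR adjusted p of 0.162). In this class, which is a single cluster, no groups overlapped for these 3 genes. Without Flox 1 edgeR gave adjusted p-values of 0.00288 for Osm and 0.000814 for Socs3, and without cKO 1 of 0.9992 and 0.986.

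Dendritic cells had 6 of 8 members higher in both cKO libraries (22.3% of all genes tested). The 6 include Osmr, from 2, 10, 3 and 2 UMIs. Lifr was at 27.9, 55.7, 116 and 172 CPM, a log2 fold change of 1.71 ± 0.37 with an adjusted p of 0.325 in edgeR and 0.0174 in DESeq2. Osm did not separate the groups there, at 153, 151, 188 and 138 CPM and a log2 fold change of 0.01 ± 0.25. Dendritic cells were 996 and 993 in the Flox libraries and 117 and 89 in the cKO libraries.

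In neutrophils 2 of 6 members were higher in both cKO libraries, against 17.8% of all genes tested, and 1, Socs3, was lower in both, against 15.3%. Socs3 was at 857 and 1064 CPM in Flox and at 692 and 553 in cKO, a log2 fold change of -0.65 ± 0.38 (edgeR adjusted p of 0.862), and it was the only member test in which both cKO libraries lay below both Flox libraries. Inside cluster 17 it was at 1226, 1116, 1132 and 813 CPM and inside cluster 19 at 78.3, 27.2, 556 and 207 CPM. The groups overlapped in cluster 17, and in cluster 19 the cKO libraries were the higher ones, though the Flox values there rest on 8 and 1 UMIs. The neutrophil share in cluster 19 was 20.8%, 2.56%, 65.9% and 26.5%. Lifr, at 9.45, 6.49, 17.8 and 31.9 CPM, and Stat3 were the 2 higher members, with edgeR adjusted p-values of 0.754 and 0.886.

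Endothelial cells had 6 of 8 members higher in both cKO libraries, against 22.3% of all genes tested, but edgeR adjusted p-values were all at 0.585 or more. The 6 include Osm, whose low endothelial level was read above as background. Osmr, at 245, 294, 696 and 401 CPM, had a log2 fold change of 0.99 ± 0.31 (edgeR adjusted p of 0.690), and Il6ra, at 152, 154, 372 and 249, had 0.99 ± 0.26 (0.585). Socs3 had 1.37 ± 0.42 (0.690), and of the fits with a library left out it passed the edgeR threshold only without cKO 2, which leaves 1 cKO library. The groups did not overlap for these 3 genes, and cKO 1 was the highest library for each. Neutrophil marker genes summed to 29.02, 45.6, 986 and 240 CPM in endothelial cells, also highest in cKO 1, and their part in these levels was not tested. Il6st, the partner chain, was at 236, 336, 349 and 210 CPM, with cKO 2 the lowest and cKO 1 the highest library.

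Fibroblasts had 7 of 10 members higher in both cKO libraries, against 27.6% of all genes tested. Il11, at 3.18 and 27.3 CPM in Flox and 126 and 209 in cKO, had the largest log2 fold change of any member test, 3.29 ± 0.83 (adjusted p of 0.279 in edgeR and 0.00236 in DESeq2), and 2.90 with the cell richest in Il11 left out of each library. Il6ra, at 33.2, 33.5, 117 and 124 CPM, had 1.75 ± 0.25 (0.197 in edgeR and 0.00469 in DESeq2). Il11 and Il6ra passed the edgeR threshold without Flox 1, a fit with 1 control library and no spread between controls. Neither passed it without cKO 1 or without cKO 2. Osmr, at 364, 332, 374 and 448 CPM, had 0.13 ± 0.25 (edgeR adjusted p of 0.910), and this sign turned when Flox 2 or cKO 2 was left out. Fibroblast cells were deeper in Flox 1, with a median of 9482 UMIs against 1678, 1767 and 1937.

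Oligodendrocytes, the myelin-forming cells, had little Osmr, at 2.17, 6.84, 49.9 and 15.98 CPM, with a log2 fold change of 2.68 ± 0.65 (adjusted p of 0.173 in edgeR and 0.00130 in DESeq2). Here 6 of 8 members were higher in both cKO libraries, against 29.4% of all genes tested. Cluster 13, with the heat shock gene Hspa1b among its leading genes, had 18.2, 28.1, 87.1 and 61.7 CPM, and cluster 12 had 1.03, 3.22, 23.5 and 7.41, so the cKO libraries were higher inside both. In cluster 28 they were lower, at 23.2, 38.5, 0 and 20.7 CPM from 1, 9, 0 and 1 UMIs. Cluster 11 held 38.3% and 65.7% of cKO oligodendrocytes, with 16.6 and 4.91 CPM, and 0 and 6 Flox cells with 0 UMIs. Il6ra, at 6.03, 13.8, 39.8 and 28.4 CPM, had 1.66 ± 0.38 (0.158 in edgeR and 0.0108 in DESeq2). Osm, also counted among the 6 higher members, was at 1.34% to 4.03% of its microglial level, where Tyrobp stood at 1.78% to 4.33%.

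In astrocytes 5 of 7 members were higher in both cKO libraries, against 26.3% of all genes tested. Osmr had a log2 fold change of 1.22 ± 0.48, Il6ra of 1.21 ± 0.46 and Lifr of 1.07 ± 0.33 (edgeR adjusted p of 0.267, 0.260 and 0.219). The Stat3 value of 2.04 ± 0.67 (adjusted p of 0.227 in edgeR and 0.0384 in DESeq2) was 0.73 with the cell richest in Stat3 left out of each library. In the choroid plexus 3 of 7 members were higher in both cKO libraries (14.5% of all genes tested), and in neuroblasts 1 of 3 was (22.5%), with edgeR adjusted p-values of at least 0.981 and 0.708. The neuroblast member, Il6ra, was at 0.861% to 12.1% of its microglial level, where Tyrobp stood at 1.33% to 7.79%.

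To see whether genotype differences depended on the class, an interaction term was fitted. Between monocyte-macrophages and microglia edgeR called 0 of 14823 genes (0%), with 1476 at an unadjusted p under 0.05, and none of the 9 members tested. Il6 had the smallest member p, with a difference, monocyte-macrophages minus microglia, of 3.05 ± 0.50 log2 units (edgeR adjusted p of 0.309), and Osm had 0.60 ± 0.15 (0.394). Il6 was near the floor in monocyte-macrophages, at 0.308, 0.322, 2.77 and 1.38 CPM from 13, 11, 55 and 17 UMIs, and at most 2.70 CPM in microglia. Between neutrophils and monocyte-macrophages, a pair chosen after seeing the data, edgeR called 150 of 12748 genes (1.18%), and Socs3 was the only member among them. The difference of its log2 fold changes, neutrophils minus monocyte-macrophages, was -2.42 ± 0.51 (edgeR adjusted p of 0.00202). With each library left out in turn the adjusted p was 0.0257 without Flox 1, 4.12e-10 without Flox 2, 0.161 without cKO 1 and 0.304 without cKO 2. Early-response genes, which tissue dissociation is known to induce, summed to 23252, 21268, 13166 and 14801 CPM in neutrophils and to 5201, 5779, 8366 and 7722 CPM in monocyte-macrophages. Their sum was thus also lower in both cKO libraries in neutrophils and higher in monocyte-macrophages, and its part in the Socs3 difference was not tested.

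Other genes of the pathway were followed in 6 lists of 6 to 26 genes, which hold some of the members too. These lists were also chosen with earlier results of these data known, so their shares beside those of all genes are a description only. Over the 11 classes edgeR called 0 of 593 tests of these genes, with 168 at an unadjusted p under 0.05 and a smallest adjusted p of 0.0837. Over all genes of a class, such an unadjusted p came in from 401 of 8352 tests in the choroid plexus to 2073 of 11479 in astrocytes. DESeq2 called 57 of the pathway tests, against 1.91% of all genes' tests. The list of STAT3 targets gave 33 of the DESeq2 calls in 218 tests. In monocyte-macrophages DESeq2 called 11 of its 25 genes tested higher and 0 lower, against 3.9% of all genes called in either direction there, with a median log2 fold change of 0.93 against -0.02 for all genes tested. The counts were 5 of 23 in microglia (median 0.51, against 2.1% of all genes called), 4 of 23 in endothelial cells (1.01, against 0.506%) and 4 of 20 in oligodendrocytes (0.90, against 4.23%), all higher. Among 12 early-response genes, DESeq2 called 3 higher in monocyte-macrophages (median 0.45) and 4 in oligodendrocytes (0.78). It called 0 of them in microglia (-0.20) and endothelial cells (-0.26). The summed level of the STAT3 targets was 1824, 2678, 7116 and 4500 CPM in monocyte-macrophages and 2185, 2759, 5776 and 4096 CPM in endothelial cells, with cKO 1 highest in both.

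Saa3, an acute-phase serum amyloid gene, was at 27.1, 47.7, 2358 and 627 CPM in monocyte-macrophages (log2 fold change 5.19 ± 0.75, adjusted p of 0.346 in edgeR and 3.92e-17 in DESeq2). In microglia it was at 13.3, 26.9, 255 and 85.5 CPM and in astrocytes at 1.37, 8.80, 109 and 50.5 CPM. Both cKO libraries were higher in each of these classes, and cKO 1 was the highest. Lcn2, which encodes the acute-phase protein lipocalin 2, was at 25.4, 11.9, 792 and 202 CPM in endothelial cells (4.94 ± 0.82, adjusted p of 0.394 in edgeR and 4.61e-10 in DESeq2). Lcn2 is also abundant in neutrophils, whose markers were highest in the same library, and their part was not tested.

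Bcl2l1, an anti-apoptotic STAT3 target, was at 21.9, 24.7, 95.5 and 103 CPM in astrocytes (2.06 ± 0.24, adjusted p of 0.0909 in edgeR and 0.000540 in DESeq2) and at 49.7, 77.8, 196 and 168 CPM in oligodendrocytes (1.41 ± 0.22, 0.0920 and 9.70e-05). In neutrophils it was at 34.6, 89.5, 305 and 172 CPM, and in fibroblasts at 10.45, 11.9, 39.0 and 45.1 CPM. In all 4 classes the cKO libraries were higher. Cebpb, a transcription factor of the acute-phase response, was at 151, 151, 382 and 287 CPM in border macrophages (1.16 ± 0.21, adjusted p of 0.0895 in edgeR and 0.00710 in DESeq2) and at 129, 146, 368 and 288 CPM in dendritic cells.

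Some listed genes were lower in the cKO libraries. Atf3, an early-response transcription factor, was at 365, 549, 108 and 142 CPM in neutrophils (-1.90 ± 0.33, adjusted p of 0.254 in edgeR and 0.00911 in DESeq2). Ccnd1, which encodes cyclin D1, was at 433, 237, 47.5 and 127 CPM in dendritic cells (-2.09 ± 0.51, 0.410 and 0.00225). In both of these the groups did not overlap.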

How the data were processed

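Cells of the injured hemisphere were profiled in 4 libraries. The authors deposited raw UMI counts per gene and barcode; per the submitters' processing notes, fastp 0.24.0, STARsolo and the mm10 build were used, while for the STARsolo version, gene annotation, strand setting and barcode filter the sources used here state nothing. Of 63181 barcodes, those with at least 500 UMIs, 250 genes and under 20% mitochondrial UMIs were kept (60942), and 1257 predicted doublets were removed (expected rate 6%). Counts were scaled to 10000 per cell, logged, and clustered on 2000 variable genes, 30 principal components and 15 neighbours (scanpy 1.11.5, leidenalg 0.10.2, resolution 1); 2 members, Il11 and Osmr, were among the variable genes. Clusters were named from marker genes, and 3 stayed unnamed, holding 4.88% to 8.48% of the cells of a library. Counts were summed per library and class, and the 11 classes with 50 or more cells in every library were tested with edgeR 4.0.16 (DESeq2 1.42.0 as the alternative, R 4.3.3), after edgeR's filter on low counts and with TMM scaling. Library totals were 77580518 to 105566650 UMIs; Poisson and binomial intervals at 95%, and floors of 3 counts, cover counting error only. The tests were checked on simulated data. Members and gene lists were chosen with earlier results of these data known. Genes named beyond the members were the 3 pathway genes with the smallest p in a class, from which those described were picked after their values were seen (some are not reported here), and the 3 genes most like each member among those with a class mean of at least 20 CPM. Replicate numbers were examined for pairing. The difference between the 2 Flox libraries was correlated over genes with that between the 2 cKO libraries. This correlation ranged from -0.27 to 0.24 over the classes, highest in neutrophils. With 1 difference per genotype it cannot settle whether the numbers pair the samples. Alternatives were other scaling, no filter, 1000 UMIs per cell, doublets kept, members left out of clustering, a replicate block and leaving out each library; a crossed block, leaving out the richest cell and the neutrophil interaction were chosen after seeing the data.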

Additional observations from a re-analysis of the deposited data

Results flagged for a closer look

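The genotype difference of Socs3, the feedback inhibitor of STAT3 signaling, was not the same in neutrophils and monocyte-macrophages by a test of the difference itself. Neutrophils minus monocyte-macrophages, the log2 fold changes differed by -2.42 ± 0.51 (edgeR interaction term, adjusted p of 0.00202). The pair of classes was chosen after seeing the data. Socs3 was lower in both cKO libraries in neutrophils and higher in both in monocyte-macrophages. Inside the neutrophil clusters it was not lower in both: in cluster 17 the libraries overlapped (1226, 1116, 1132 and 813 CPM in Flox 1, Flox 2, cKO 1 and cKO 2), and in cluster 19 both cKO libraries were higher (78.3, 27.2, 556 and 207 CPM, the Flox values from 8 and 1 UMIs). Cluster 19, the lower one, held 20.8%, 2.56%, 65.9% and 26.5% of the class, and the part of this makeup was not tested. The difference passed the threshold without Flox 1 (-1.66) and without Flox 2 (-3.19) and missed it without cKO 1 (-2.57, edgeR adjusted p of 0.161) and without cKO 2 (-2.26, 0.304). Its cause was not tested.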

How the results depend on the processing

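Of the log2 fold changes of single members recomputed under an alternative, 629 kept their direction and side of the threshold, 74 newly passed it and 3 turned sign. These were Osmr in fibroblasts without Flox 2 (-0.0027) and without cKO 2 (-0.034), in a range of -0.034 to 0.262 over libraries left out, and Il6st in microglia without Flox 1 (0.041), in a range of -0.21 to 0.041. All 90 levels and 70 shares of UMIs by class recomputed moved by less than the spread between libraries. Shares of cells with a UMI depend on depth: thinned to 1000 UMIs, the means over libraries were 30.1% for Osmr (54.3% before) and 20.1% for Il6st in endothelial cells, 0.858% for Il6 and 0.633% for Lif in fibroblasts, 35.2% for Il6ra, 45.1% for Socs3 and 34.3% for Stat3 in neutrophils, and 16.2% for Lifr in border macrophages.

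edgeR called 0 members in each class. DESeq2 called 1 in astrocytes, 2 in border macrophages, 1 in dendritic cells, 2 in fibroblasts, 2 in microglia, 3 in monocyte-macrophages and 2 in oligodendrocytes, where it called 2.08%, 1.64%, 0.697%, 1.98%, 2.10%, 3.90% and 4.23% of all genes in the same order. Without the filter on low counts edgeR called 4 in astrocytes, 3 in border macrophages, 3 in fibroblasts and 2 each in microglia, monocyte-macrophages and oligodendrocytes, beside 6.25%, 2.98%, 2.94%, 2.08%, 1.26% and 5.51% of all genes. Other scaling, 1000 UMIs per cell, kept doublets, members left out of clustering and the richest cell left out added no call in any class. With the replicate number as a block, 1 member was called in border macrophages and 1 in microglia (1.33% and 0.0773% of all genes), and it changed no other call; with the numbers crossed, 1 was called in border macrophages, 1 in endothelial cells, 1 in fibroblasts and 2 in oligodendrocytes (1.60%, 0.729%, 0.892% and 2.93% of all genes). Whether the numbers pair the libraries is not known. For the interaction fits with a library left out, given last in the next sentence, the share of all genes called was not counted. Leaving out 1 library gave 0 to 4 called members in border macrophages, 0 to 3 in dendritic cells, 0 to 1 in endothelial cells, 0 to 3 in fibroblasts, 1 to 5 in microglia, 0 to 8 in monocyte-macrophages, 0 to 1 in neuroblasts and 0 to 2 in oligodendrocytes, and 0 to 3 in the interaction of monocyte-macrophages and microglia. Of all genes it called up to 13.4%, 15.4%, 0.441%, 10.1%, 29.6%, 31.4%, 3.88% and 14.6% in these 8 classes.

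The counts of pathway genes by class that follow leave out the early-response list. In the remaining lists edgeR called 0 genes in each class. DESeq2 called 3 in astrocytes, 5 in border macrophages, 3 in dendritic cells, 4 in endothelial cells, 4 in fibroblasts, 7 in microglia, 15 in monocyte-macrophages, 1 in neutrophils and 6 in oligodendrocytes. It called 0.506% of all genes in endothelial cells, 0.754% in neutrophils and the shares above in the others. Leaving out 1 library gave 0 to 1 in astrocytes, 0 to 15 in border macrophages, 0 to 1 in the choroid plexus, 0 to 12 in dendritic cells, 0 to 5 in endothelial cells, 0 to 10 in fibroblasts, 1 to 22 in microglia, 1 to 30 in monocyte-macrophages, 0 to 2 in neuroblasts and 0 to 18 in oligodendrocytes, beside up to 0.422% of all genes in astrocytes, 0.326% in the choroid plexus and the shares above. The causes of these changes were not tested. With 2 libraries a group, differences of 2-fold were mostly below what the edgeR test could recover.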
